A study of Mus musculus with 6 samples.

Results

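The 8 genes described here lie outside the usual list of Notch responses: 2900052N01Rik, Gm11627, Cyp4f15, Papss2, P2ry14, Prex2, Entpd2 and Maob. They were chosen by their measured values, because both knockout arrays lay well below all 4 control arrays, and none is a known Notch effector or contractile gene of mural cells. All probe sets annotated to exactly 1 of these symbols were taken, which gave 14 probe sets for 8 genes, out of 45037 probe sets and 18193 genes. Expression was measured in total RNA of mouse brain, with 6 one-colour arrays in 3 groups of 2, all from C57/Bl6 mice aged 2 months. Pofut1 knockout brains carried the Nestin-Cre transgene with both copies of Pofut1 floxed. NestinCre control brains carried the transgene with wild-type Pofut1, and Flox control brains carried the floxed copies without Cre. The Nestin regulatory sequence drives Cre in neural progenitors and so marks the neurons and glia that descend from them. The knockout therefore need not reach every cell of the brain, and which cells lost Pofut1 was not measured here. The labels do not tie arrays to animals. The arrays of the knockout group, and those of the NestinCre control group, differed in sex by their RNA and so did not come from 1 animal, while for Flox control the spread between arrays may be technical.

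Pofut1 encodes the enzyme that places O-linked fucose on EGF-like repeats of Notch receptors, a step that ligand-driven signalling needs. An activated receptor releases its intracellular domain, which enters the nucleus and joins the DNA-binding protein RBPJ to switch on genes such as the Hes and Hey repressors. Of the genes described here, 2900052N01Rik and Gm11627 are long non-coding RNAs in RefSeq, and the other 6 encode proteins: enzymes of sulphate, nucleotide, fatty acid and monoamine metabolism, a nucleotide-sugar receptor and an activator of the small GTPase Rac. Monoamine oxidase B is best known in brain as an enzyme of astrocytes, and Entpd2 as an ectonucleotidase of progenitor-like glia.

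The arrays resembled each other closely, with correlations of 0.985 to 0.995 over all probe sets and medians of 7.32 to 7.36 on the log2 scale. By Xist and the Y-linked Eif2s3y, the male arrays were knockout replicate 1 and NestinCre control replicate 2, and the remaining 4 were female. The correlation of that male pair, 0.995, was the highest of all pairs, above the 0.993 of the 2 knockout arrays. Both Flox control arrays held more RNA of pituitary hormones, with a mean of 7.13 and 7.94 on the log2 scale over 6 such genes, against 6.24 to 6.60 on the other arrays. Neuronal genes such as Snap25, Syt1 and Rbfox3 were at a mean of 11.99 and 12.10 in knockout, against 12.04 to 12.17 in the controls (10 genes). Pofut1 itself was lower in knockout, with intensities of 610.1 and 695.9, against 917.9 and 874.1 in NestinCre control and 992.1 and 899.2 in Flox control. Its log2 difference was -0.50 (SE 0.08) and did not pass over all probe sets (limma adjusted p = 0.211). Its 2 dimmer probe sets differed by -0.32 and -0.18. No source used here places these probe sets against the floxed region, so they may not read the deletion.

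Promoter sequence was available from RefSeq (GRCm38.p6) for 6 of the 8 genes, as 10 windows of 250 bases before to 50 bases after an annotated transcript start. Prex2 and Maob had no entry. The windows were searched on both strands for TGGGAA, the core bound by RBPJ, for its longer forms GTGGGAA and CGTGGGAA, which contain it, and for the palindromic NFI motif. The core was found in at least 1 window of 5 genes, 2900052N01Rik, Gm11627, Cyp4f15, Papss2 and P2ry14, and in none for Entpd2. Across all 27025 genes with windows, 28.3% held it in any window, and genes with several windows, as Papss2 and P2ry14 here, have more chances. The NFI motif was found in none of the members' windows and in 0.0365% of all windows. The upstream stretches that hold the core are shown so that its place can be read, with the core or its complement in capitals, 5′ to 3′ on the gene's own strand.
2900052N01Rik: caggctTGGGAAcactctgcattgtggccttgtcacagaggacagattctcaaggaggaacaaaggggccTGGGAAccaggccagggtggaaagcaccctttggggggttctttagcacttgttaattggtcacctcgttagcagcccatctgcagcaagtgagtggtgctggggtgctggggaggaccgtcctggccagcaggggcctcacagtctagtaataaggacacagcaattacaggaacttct
Gm11627: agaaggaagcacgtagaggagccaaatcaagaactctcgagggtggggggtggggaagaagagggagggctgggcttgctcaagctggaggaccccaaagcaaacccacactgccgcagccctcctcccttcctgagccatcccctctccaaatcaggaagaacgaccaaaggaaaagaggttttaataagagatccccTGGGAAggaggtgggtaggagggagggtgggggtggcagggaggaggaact
P2ry14: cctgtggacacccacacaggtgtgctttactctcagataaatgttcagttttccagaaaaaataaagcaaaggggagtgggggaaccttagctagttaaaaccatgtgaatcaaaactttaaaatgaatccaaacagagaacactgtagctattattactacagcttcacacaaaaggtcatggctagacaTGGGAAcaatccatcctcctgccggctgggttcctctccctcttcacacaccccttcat
Hes5: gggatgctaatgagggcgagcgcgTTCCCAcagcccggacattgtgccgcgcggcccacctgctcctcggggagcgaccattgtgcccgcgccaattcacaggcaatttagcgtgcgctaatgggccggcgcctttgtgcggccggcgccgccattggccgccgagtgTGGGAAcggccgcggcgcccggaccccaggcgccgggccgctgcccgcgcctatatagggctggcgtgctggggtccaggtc
These lie at chr9:46913353-46913602 (plus strand), chr11:102579120-102579369 (minus strand), chr3:59131329-59131578 (minus strand) and chr4:154960673-154960922 (plus strand). The P2ry14 stretch belongs to the second of its 4 listed starts. Hes5 is set beside them as a classical Notch target with values across the arrays like those of the 8 genes. Of 9 genes with profiles nearest to the members and a promoter entry, 4 held the core (Hes5, Mfge8, Lhx2 and Art3) and 5 did not (Nrarp, Rgs5, Vps52, Tmem254a and Phgdh).

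Counting the first transcribed base as 1, the core began at -244 and -180 in 2900052N01Rik, at -51 in Gm11627 and at -59 in P2ry14. In Hes5 it stood at -82, with its complement at -226, and both were the longer form GTGGGAA. Cyp4f15 was the only member with that longer form, which 6.38% of all windows hold. There it ran from -2 to 5, across the annotated start, and had a C before it, so that the full CGTGGGAA was present, which 0.734% of all windows hold. The 30 bases around it, at chr17:32685646-32685675 on the plus strand, are shown with the GTGGGAA in capitals.
Cyp4f15: gaaggagaaccGTGGGAAactcactgttcc
The match in Papss2 was the complement, from 2 to 7 after the second of its 2 listed starts. These matches describe letters only, and binding was not measured.

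Of the 8 genes, the non-coding RNAs had the largest differences by their brightest probe sets. Gm11627 was at 6.41 and 6.31 on the log2 scale in knockout, against 8.87 and 8.84 in NestinCre control and 8.64 and 9.23 in Flox control. Knockout stood at 17.2% of the control level, a log2 difference of -2.54 (SE 0.17), and the nearest control array was 2.23 above the higher knockout array. That difference ranked 1 among 18193 genes, each taken by its brightest probe set. The brightest probe set of 2900052N01Rik was at 8.20 and 8.003 in knockout, against 10.26 and 10.23 in NestinCre control and 10.14 and 10.21 in Flox control. The 4 controls spread by an SD of only 0.05, and knockout stood at 23.1% of them, a difference of -2.11 (SE 0.07). Its other probe sets gave -1.48 (SE 0.17) and -1.44 (SE 0.15), and on both of them the 2 knockout arrays were also below all controls.

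The figures printed for these genes come from the contrast by which they were chosen, so they are given as a description, with no test. Both knockout arrays lay below all 4 controls for 8 of 8 genes by that choice, and for 10.9% of all genes. Of the 14 probe sets, 11 did so, against 9.19% of all probe sets.

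**Figure D1:**
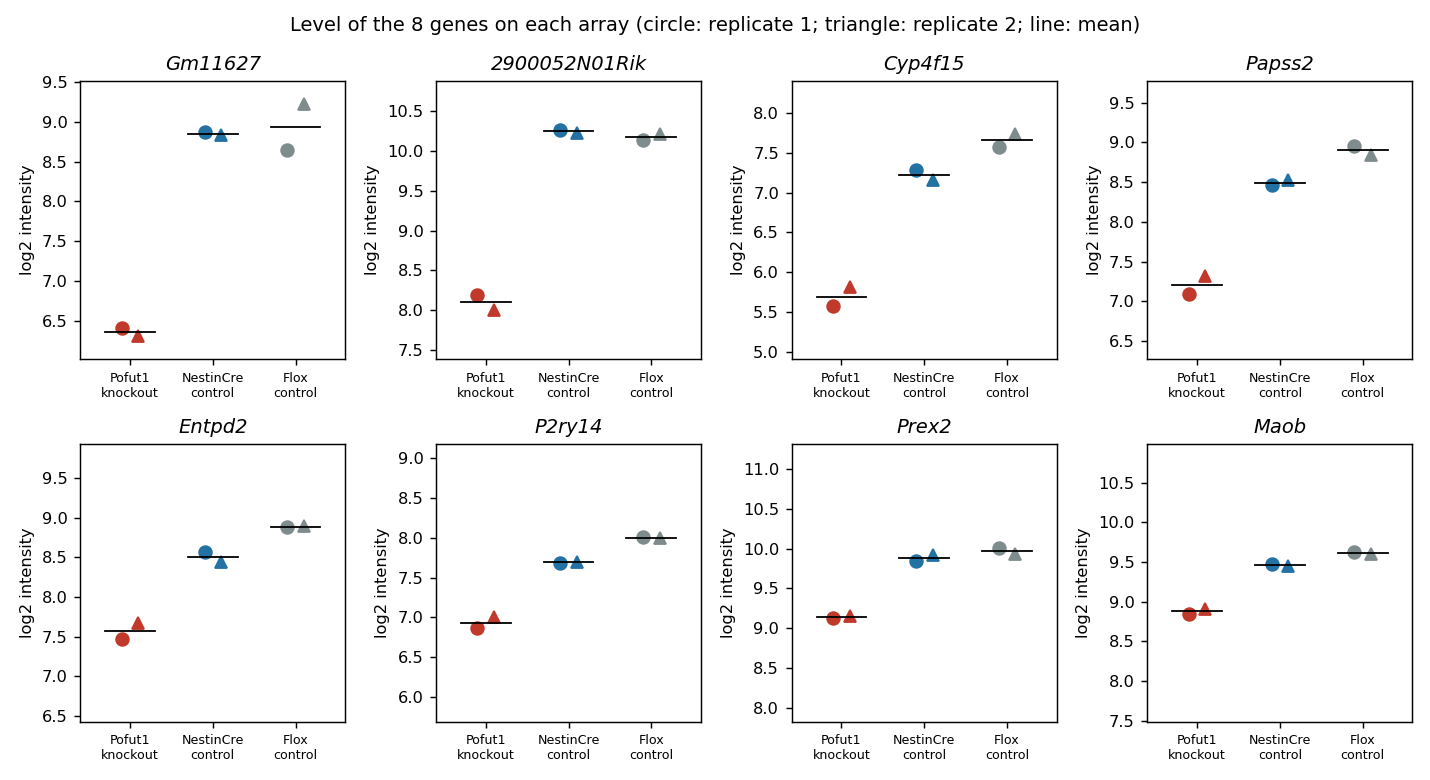
Log2 intensity (vertical axes, each spanning 3.5 units) of the brightest probe set of each gene on the 2 knockout, 2 NestinCre control and 2 Flox control arrays. Circles are replicate 1, triangles replicate 2 and lines group means; the knockout points lie below all control points in every panel, from a gap of 2.23 for Gm11627 to 0.54 for Maob.

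Papss2 makes the activated sulphate that all sulphotransferases use. Its brightest probe set was at 7.09 and 7.31 in knockout, against 8.46 and 8.52 in NestinCre control and 8.95 and 8.84 in Flox control. Knockout was 2.82-fold lower (log2 difference -1.49, SE 0.08), and the 3 groups did not overlap. Of the other Papss2 probe sets, 1 also separated the groups, at 7.14 and 6.86 in knockout against 7.93 to 8.29 in the controls (difference -1.15, SE 0.11). The remaining ones were dim, with all 6 arrays between 5.80 and 6.19, and differed by -0.12 (SE 0.10) and -0.02 (SE 0.05). Their knockout and control arrays overlapped.

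The proteins of extracellular nucleotide signalling were Entpd2 and P2ry14. Entpd2, which splits ATP outside the cell mainly to ADP, was at 7.47 and 7.67 in knockout, against 8.56 and 8.44 in NestinCre control and 8.88 and 8.89 in Flox control. Knockout stood at 45.8% of the controls (-1.13, SE 0.08). P2ry14, a G protein-coupled receptor for UDP-glucose and related UDP-sugars, was at 6.86 and 7.001 in knockout, against 7.68 and 7.70 in NestinCre control and 8.01 and 7.999 in Flox control. Knockout stood at 53.1% (-0.91, SE 0.06). For both genes the groups were stepped, with knockout lowest, NestinCre control between and Flox control highest, and no group overlapped another.

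The oxidising enzymes were Cyp4f15, a cytochrome P450 of the family that hydroxylates fatty acids and leukotrienes, and Maob, which oxidises phenylethylamine and dopamine at the outer mitochondrial membrane. Cyp4f15 was at 5.57 and 5.81 in knockout, against 7.29 and 7.16 in NestinCre control and 7.58 and 7.74 in Flox control, so that knockout was 3.37-fold lower (-1.75, SE 0.10). In linear terms the knockout arrays read 47.4 and 56.2, close to the lowest value of any probe set on an array, which was at most 38.2, so the fold may be understated. Maob, on the X chromosome, was at 8.85 and 8.91 in knockout, against 9.48 and 9.45 in NestinCre control and 9.63 and 9.60 in Flox control. It was the smallest difference of the 8, at 63.3% of the controls (-0.66, SE 0.05), and ranked 82 among all genes. In both mixed-sex groups the male array was the lower one, as it also was for Cyp4f15 and Entpd2. Over the 8 genes it was lower for 6 in knockout and 5 in NestinCre control. The share over all genes was not counted, so nothing is read from these counts. With sex as a covariate the Maob difference was -0.65.

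Prex2 activates Rac downstream of phosphoinositide 3-kinase and G protein βγ subunits. Its brightest probe set was at 9.13 and 9.15 in knockout, against 9.84 and 9.91 in NestinCre control and 10.01 and 9.93 in Flox control (-0.78, SE 0.05). The knockout arrays differed by only 0.02. The second Prex2 probe set was at 6.98 and 6.93 in knockout, against 6.79 to 7.28 in the controls, and did not separate the groups (-0.03, SE 0.21).

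**Figure D2:**
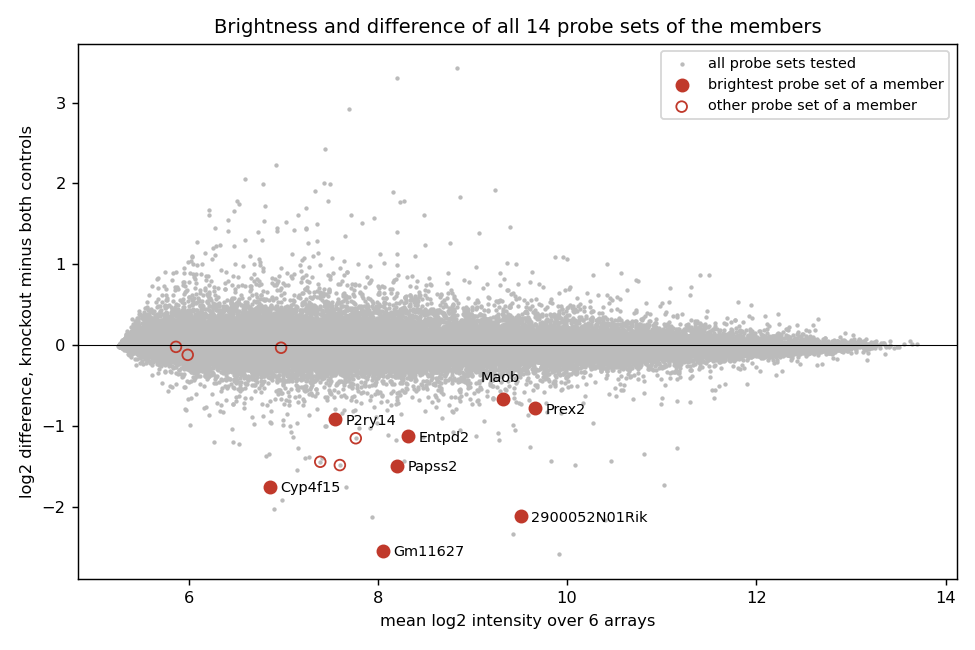
Mean log2 intensity over 6 arrays (horizontal) against the log2 difference of knockout minus both controls (vertical) for all 45037 probe sets tested (grey). Filled red points are the brightest probe set of each of the 8 genes and open red circles the other 6; the 3 open circles near 0 are the probe sets of Papss2 and Prex2 that did not separate the groups.

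The controls were also compared with each other. The choice of genes used these 4 control arrays, so the values are a description. All but 1 of the genes averaged lower in NestinCre control than in Flox control, and 2900052N01Rik averaged higher (0.07, SE 0.08). For 6 of 8 both NestinCre control arrays lay below both Flox control arrays, and this was so for 30.4% of all genes. The median log2 difference of the 8 was -0.23, against -0.04 for all genes, of which 64.2% were below 0. The differences were -0.44 (SE 0.12) for Cyp4f15, -0.40 (SE 0.10) for Papss2, -0.38 (SE 0.09) for Entpd2, -0.31 (SE 0.07) for P2ry14 and -0.15 (SE 0.05) for Maob. These 5 had an unadjusted p under 0.05, as did 7.07% of all genes in that direction, and nothing is read from that count. None of the 8 passed over all probe sets in limma, where their adjusted p ran from 0.378 to 0.937 and 0.00% of genes passed in either direction. Gm11627 (-0.08, SE 0.20) and Prex2 (-0.09, SE 0.06) made up the rest.

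For those 5 genes, NestinCre control lay between 20.6% (Maob) and 29.2% (P2ry14) of the way from Flox control to knockout on the log2 scale. They were set apart by their difference between the controls, which favours a larger share. For the other genes it was 10.9% (Prex2), 3.08% (Gm11627) and -3.43% (2900052N01Rik). Flox control differs from NestinCre control in the transgene, in the floxed copies, in having no male array and in its pituitary RNA, and these cannot be told apart. Against NestinCre control alone the 8 differences of knockout ran from -2.50 to -0.58 with a median of -1.11, and against Flox control alone from -2.58 to -0.74 with a median of -1.51. These comparisons share the knockout arrays.

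**Figure D3:**
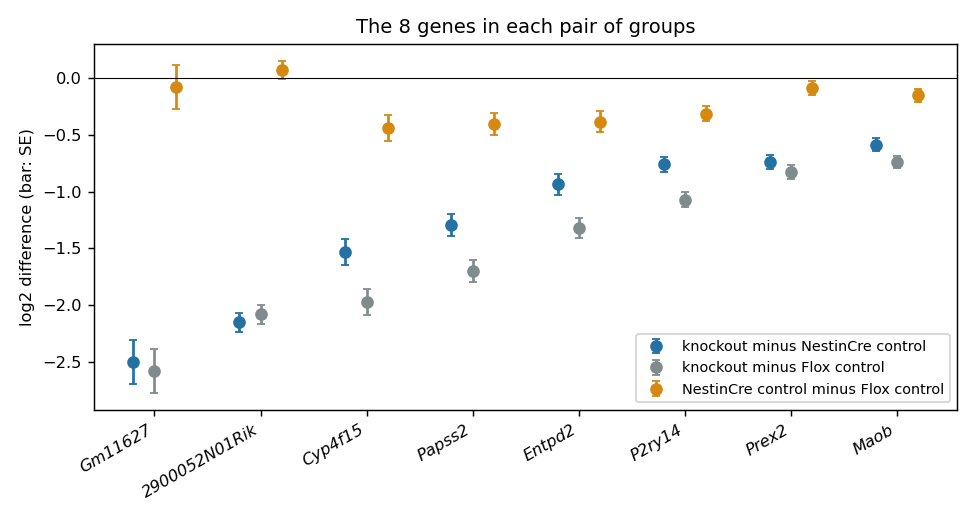
Log2 difference and its SE (bars) for each of the 8 genes in 3 comparisons: knockout minus NestinCre control, knockout minus Flox control and NestinCre control minus Flox control. The last lies at -0.44 to -0.15 for Cyp4f15, Papss2, Entpd2, P2ry14 and Maob and nearer 0 for the other genes.

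Close relatives of the 8 genes were then read, listed by family membership. Of 28 family genes listed, 23 were measured, and 12 were below 0 and 11 above, with a median of 0.00 (-0.000182 before rounding), against -0.02 for all genes. None passed in limma over all probe sets, where 0.0275% of genes did. At an unadjusted p under 0.05, 2 were lower and 1 higher, against 6.45% and 4.16% of all genes. Papss1, which makes the same sulphate donor, differed by -0.01 (95% interval -0.25 to 0.22), and its arrays were at 10.66 and 10.54 in knockout against 10.52 to 10.74 in the controls. Prex1 differed by -0.01 (-0.29 to 0.27), and Maoa, the enzyme that prefers serotonin and lies next to Maob on the X chromosome, by -0.07 (-0.24 to 0.10). These intervals leave out a difference as large as that of Papss2, Prex2 or Maob in each case.

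In the Cyp4f family, Cyp4f14 was the nearest to Cyp4f15. It was at 6.01 and 6.31 in knockout, against 6.60 and 6.71 in NestinCre control and 6.98 and 6.94 in Flox control (-0.65, SE 0.10, limma adjusted p = 0.193). Its 3 groups were stepped without overlap, like those of Cyp4f15, and all of its values were dim. Whether probes of these related genes bind each other's RNA was not tested. Cyp4f13 differed by -0.20 (SE 0.14), Cyp4f16 by -0.09 (SE 0.11), Cyp4f39 by -0.14 (SE 0.06) and Cyp4f18 by 0.01 (SE 0.07).

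Among ectonucleotidases, Entpd1, the CD39 enzyme of microglia and vessels that takes ATP to AMP, differed in the opposite direction to Entpd2. It was at 7.95 and 7.95 in knockout, against 7.42 and 7.38 in NestinCre control and 7.45 and 7.28 in Flox control (0.57, SE 0.07, limma adjusted p = 0.144). Of its 3 probe sets 1 was below 0. Entpd3 was at -0.17 (SE 0.06), Entpd5 at 0.17 (SE 0.09), Entpd6 at -0.03 (SE 0.07), Entpd7 at 0.03 (SE 0.19) and Entpd8 at 0.03 (SE 0.06).

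The other P2Y receptors and their orphan relatives were spread around 0, with 6 of 9 above it and a median of 0.07. P2ry12 and P2ry13, the microglial ADP receptors beside P2ry14 on chromosome 3, were at 0.10 (SE 0.12) and 0.13 (SE 0.06), with Gpr171 in the same cluster at 0.28 (SE 0.14). P2ry6, a UDP receptor, was at 0.33 (SE 0.13). P2ry1 was at 0.07 (SE 0.08), P2ry2 at 0.00 (SE 0.04), P2ry4 at -0.04 (SE 0.05), P2ry10 at 0.01 (SE 0.04) and Gpr34 at -0.01 (SE 0.11).

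**Figure D4:**
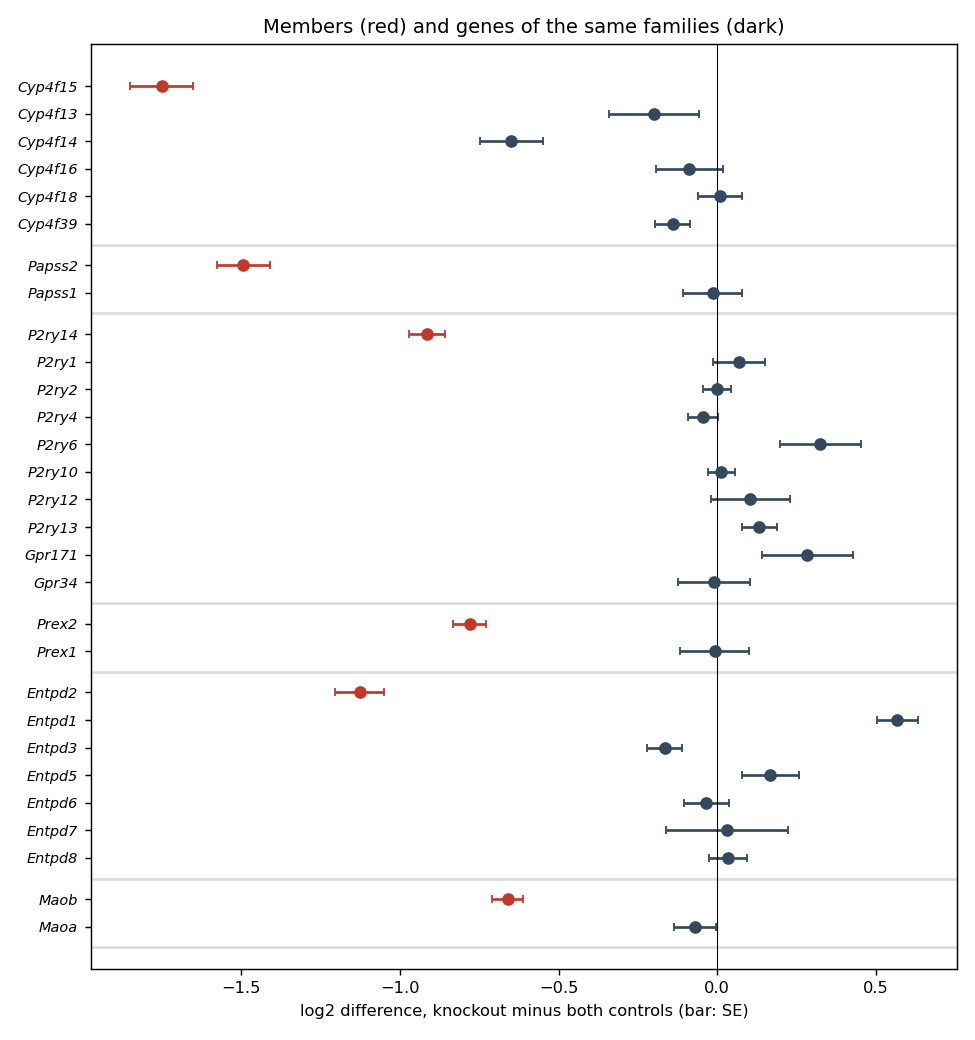
Log2 difference of knockout minus both controls with its SE (bars) for the 6 protein-coding genes (red) and the 23 measured genes of their families (dark), grouped by family from top to bottom. Family genes lie between -0.65 (Cyp4f14) and 0.57 (Entpd1), while the 6 genes lie between -1.75 and -0.66.

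Genes that act in the same pathways were counted from 6 lists. Of 125 genes listed, 109 were measured. None passed in limma over all probe sets, and at an unadjusted p under 0.05, 13 of 109 were lower and 2 higher, against 6.45% and 4.16% of all genes. Their median was -0.05. Of the 13 lower ones 6 came from leukotriene and fatty acid metabolism around Cyp4f15, where 15 of 17 were below 0, against 59.3% of all genes, and the median was -0.14. The lists were chosen with earlier results of these data known, so these counts are a description. Alox5ap, the protein that presents arachidonic acid to 5-lipoxygenase, was at 7.54 and 7.76 in knockout, against 8.34 and 8.26 in NestinCre control and 8.51 and 8.42 in Flox control (-0.73, SE 0.08, limma adjusted p = 0.132). Its knockout arrays lay below all controls. The soluble epoxide hydrolase Ephx2 was at -0.54 (SE 0.08) and the prostaglandin E synthase Ptges at -0.44 (SE 0.07).

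In sulphation, where Papss2 supplies the donor, the median of 33 genes was -0.04, and the most extreme by p were Slc35b3, a Golgi carrier of the donor, at 0.36 (SE 0.10), the heparan sulphotransferases Hs3st2 at -0.25 (SE 0.10) and Ndst3 at 0.22 (SE 0.09). At an unadjusted p under 0.05, 1 was lower and 1 higher. Between the controls, NestinCre control minus Flox control, the median of these 33 genes was -0.11. Around Entpd2, 17 genes of extracellular nucleotides and adenosine had a median of -0.05, with 1 lower: the phosphatase Alpl at -0.23 (SE 0.06). The ATP-gated channel P2rx7 was at 0.49 (SE 0.19) and the vesicular ATP carrier Slc17a9 at -0.22 (SE 0.11). The UDP-sugar supply, which provides ligands of P2ry14, had a median of -0.06 over 9 genes, with 2 lower: Uap1 at -0.27 (SE 0.06) and the carrier Slc35d1 at -0.23 (SE 0.07). Ugp2, which makes UDP-glucose, was at -0.16 (SE 0.08).

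Monoamine handling, the setting of Maob, had a median of -0.09 over 13 genes, with 2 lower: the histamine enzymes Hnmt at -0.26 (SE 0.06) and Hdc at -0.29 (SE 0.09). The controls differed more, with a median of -0.22 over this list for NestinCre control minus Flox control, against -0.04 for all genes. The plasma membrane monoamine transporter Slc29a4 was at -0.16 (SE 0.09). In phosphoinositide 3-kinase and Rac signalling, the setting of Prex2, the median of 20 genes was 0.02. There Pik3cg, a kinase subunit of leukocytes, was at 7.53 and 7.37 in knockout, against 6.69 and 6.78 in NestinCre control and 6.27 and 6.81 in Flox control (0.81, SE 0.16, limma adjusted p = 0.242). Akt1 was at -0.21 (SE 0.06) and the exchange factor Trio at 0.16 (SE 0.08).

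The nearest measured genes on the chromosome, 2 on each side of each of the 8, gave 32 neighbours with a median of -0.06, of which 20 were below 0, close to the 59.3% of all genes. None passed in limma over all probe sets. At an unadjusted p under 0.05, 4 were lower and 1 higher, against 6.45% and 4.16% of all genes. The neighbour with the largest difference was Fzd2, a Wnt receptor gene next to Gm11627 on chromosome 11. Fzd2 was at 8.82 and 8.72 in knockout, against 9.92 and 10.01 in NestinCre control and 9.78 and 10.42 in Flox control (-1.26, SE 0.19, limma adjusted p = 0.182, or 0.0380 with an intensity trend in eBayes). Flox control replicate 2 exceeded replicate 1 by 0.58 for Gm11627 and by 0.64 for Fzd2, more than for 99.2% and 99.4% of all genes. Nrarp, on chromosome 2, showed the same in smaller measure, at 0.38. Fzd2 had a further 2 probe sets, both dim, at -0.16 (SE 0.07) and -0.28 (SE 0.12). Whether the probe sets of Gm11627 and Fzd2 read separate transcripts was not tested.

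Next to Maob on its other side, Ndp, which encodes the secreted protein norrin, was at 7.70 and 7.92 in knockout, against 7.93 to 8.49 over the 4 controls (-0.35, SE 0.10). Knockout replicate 2 lay just under NestinCre control replicate 1. The others were Nxpe4 at -0.33 (SE 0.10) near 2900052N01Rik, Zfp811 at -0.32 (SE 0.08) near Cyp4f15 and Sapcd2 at 0.28 (SE 0.10) near Entpd2. Against NestinCre control alone Ndp differed by only -0.16 (SE 0.12) and Nxpe4 by -0.13 (SE 0.12). Against Flox control alone they differed by -0.55 and -0.54. Zfp811 differed by -0.32 from each control, and Sapcd2 by 0.23 from NestinCre control and 0.32 from Flox control. Cadm1, the adhesion molecule gene next to 2900052N01Rik, was at -0.02 (SE 0.05) on its brightest probe set, and its 4 probe sets lay between -0.11 and 0.03.

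**Figure D5:**
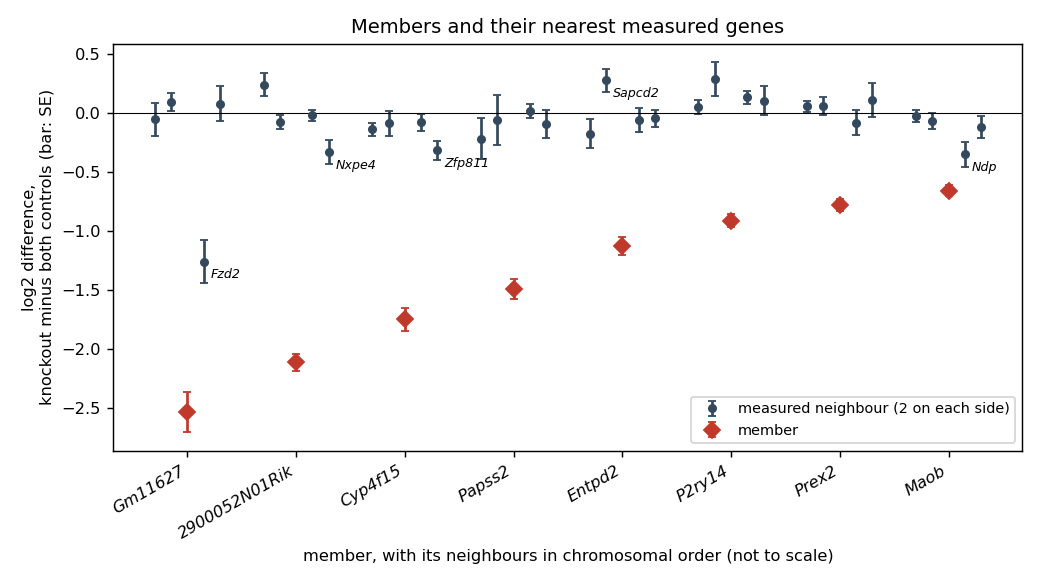
Log2 difference of knockout minus both controls with its SE (bars) for the 8 genes (red diamonds) and the 2 nearest measured genes on each side of them (dark points, in chromosomal order, distances not to scale). Neighbours with an unadjusted p under 0.05 are named; Fzd2 beside Gm11627 lies at -1.26 and the other 31 neighbours between -0.35 and 0.28.

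The genes most like the 8 across the 6 arrays were found by the root mean square difference between log2 profiles, each set to a mean of 0. Closest to the average profile of the 8 was Mfge8, which encodes a secreted phosphatidylserine-binding protein, at 0.11. It was followed by Hes5 (0.15), Fzd2 (0.19), the scavenger receptor gene Scara3 (0.20) and Art3 (0.21). Mfge8 was at 9.71 and 10.13 in knockout, against 11.14 and 11.11 in NestinCre control and 11.39 and 11.40 in Flox control. Hes5 was at 6.19 and 6.52 in knockout, against 7.70 and 7.45 in NestinCre control and 8.04 and 7.77 in Flox control. Both were stepped in the same order as Cyp4f15, Papss2, Entpd2, P2ry14, Prex2 and Maob, and so was Art3, while Fzd2 and Scara3 were not. Both NestinCre control arrays lay below both Flox control arrays for 30.4% of all genes.

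Gene by gene, the nearest to 2900052N01Rik was Rgs5, a pericyte gene (0.08), and the nearest to Gm11627 was Nrarp, a Notch target (0.13). Mfge8 and Hes5 came first for both Cyp4f15 (0.22 and 0.22) and Papss2 (0.12 and 0.12). Heyl, a Notch effector, was nearest to Entpd2 (0.12) and Higd1b, a pericyte gene, to P2ry14 (0.08). For Prex2 the nearest were Tmem254a (0.07) and Phgdh, the serine synthesis enzyme (0.07), and for Maob the homeobox gene Lhx2 (0.05) and Phgdh (0.06). The second nearest were Nrarp for 2900052N01Rik (0.20), Rgs5 for Gm11627 (0.26), Vps52 for P2ry14 (0.10) and Mfge8 for Entpd2 (0.13). These are descriptions over 6 arrays in which the knockout arrays set most of each profile.

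In whole-tissue RNA, fewer cells of a type and less RNA per cell cannot be told apart, so marker genes of the cell types were read beside these values. Over all genes, 10.9% had both knockout arrays below all controls, and 6.45% were lower and 4.16% higher at an unadjusted p under 0.05. Of 23 measured astrocyte genes, 13 had both knockout arrays below all controls, 10 were lower and 2 higher at an unadjusted p under 0.05, and the median was -0.19. Their mean level on the log2 scale was 11.05 and 11.16 in knockout, against 11.20 to 11.28 in the controls. Slc1a2, the main glutamate transporter of astrocytes, was at -0.23 (SE 0.05) and Gpc5 at -0.51 (SE 0.07), while the astrocyte filament gene Gfap was at 0.86 (SE 0.07), with no overlap of the groups. Neural stem and progenitor genes had a median of -0.13 over 19 genes, with 5 lower and 1 higher, and Thbs4 at -0.86 (SE 0.14), Rlbp1 at -0.85 (SE 0.15) and Eomes at -0.24 (SE 0.04). Between the controls, NestinCre control minus Flox control, the median of this list was also -0.13. Its mean level was 9.10 and 9.10 in knockout, against 9.18 and 9.25 in NestinCre control and 9.37 and 9.32 in Flox control.

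Pericyte and smooth muscle genes had a mean level of 7.72 and 7.74 in knockout, against 8.18 to 8.34 in the controls (14 genes, median -0.32, 8 lower), with Rgs5 past the threshold over all probe sets (-2.16, SE 0.08, limma adjusted p = 0.0263). Higd1b (-0.96, SE 0.05) and Myh11 (-0.86, SE 0.12) were next. Notch effectors and receptors had a median of -0.12 over 16 genes, with 5 lower, and Nrarp (-2.34, SE 0.12) passed with a limma adjusted p of 0.0457. Neither call held with sex as a covariate (limma adjusted p = 0.146 for Rgs5 and 0.161 for Nrarp), with the replicate number as a block (0.162 and 0.281) or on leaving out any 1 array. With sex or the block 0 of all probe sets passed, against 7 in the main fit, so the loss was not particular to these genes. Leaving out arrays gave differences of -2.26 to -2.06 for Rgs5 and -2.43 to -2.24 for Nrarp. Nrarp also missed with log2 of the value plus 16 (adjusted p = 0.0626). With an intensity trend in eBayes the adjusted p was 0.000581 for Rgs5 and 0.00175 for Nrarp. Heyl was at -0.94 (SE 0.08) and Hes5 at -1.38 (SE 0.14). The part of any of these cell types in the levels of the 8 genes was not tested.

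Microglial genes stood higher, with a mean level of 9.12 and 9.22 in knockout against 8.86 to 9.05 in the controls, 11 of 11 above 0 and 4 higher, led by Aif1 (0.70, SE 0.06), Tyrobp (0.48, SE 0.07) and C1qa (0.27, SE 0.09). Oligodendrocyte precursor genes had a median of 0.27 (7 genes, 3 higher), with Vcan at 0.72 (SE 0.11), Olig1 at 0.27 (SE 0.08) and Gpr17 at 0.61 (SE 0.22). Neuronal genes (median -0.01, 6 of 10 below 0 and 4 above, with Slc17a7 at -0.21, Gad1 at -0.14 and Rbfox3 at -0.14) and endothelial genes (median 0.10, 5 of 12 below 0 and 7 above, with Slc2a1 at 0.13, Slco1a4 at 0.14 and Abcb1a at 0.17) had none at an unadjusted p under 0.05. Oligodendrocyte genes had a median of -0.05, with 9 of 9 below 0, against 59.3% of all genes. Their mean level was 11.41 and 11.33 in knockout, against 11.46 to 11.59 in the controls. Of these genes 2 were lower at an unadjusted p under 0.05, among them Opalin (-0.62, SE 0.22) and Mog (-0.21, SE 0.07), and Mag was at -0.18 (SE 0.10). The pituitary genes Prl (-1.23, SE 0.64), Pomc (-0.23, SE 0.18) and Gh (-0.54, SE 0.44) had their highest values on the Flox control arrays.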

How the data were processed

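The deposited values were intensities on a linear scale, 1 per probe set and array, made by the authors with GCOS and RMA, named in the submitters' processing notes without versions or roles. RMA is a background correction, quantile normalization and probe summary. The build and filters were not given in the sources used here. No further normalization was applied, and log2 was taken. Of 45101 probe sets, 64 controls were left out. Names came from the platform annotation, in which 34945 probe sets had 1 symbol and were used, 932 had several and 9160 had none listed. Labelled cDNA was amplified from 25 ng of RNA, per the labels' protocols. RefSeq (GRCm38.p6) gave gene order, gene types and promoters, matched by Entrez identifier or symbol (8 of 8 members by identifier).

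A mean per group was fitted to all 6 arrays with limma 3.58.1 in R 4.3.3 (lmFit, eBayes, 3 residual degrees of freedom, 4.94 with the prior). Benjamini-Hochberg adjustment covered 45037 probe sets, with a threshold of 0.05. Both controls means the average of the 2 control means. A gene stands for its brightest probe set, by mean log2 over 6 arrays. The fit was tested on simulated data. Named genes were the members, all family genes, up to 3 genes per pathway or cell type list by smallest p, neighbours with an unadjusted p under 0.05, and the nearest profiles. Members, lists and motifs were chosen with earlier results of these data known. The number of arrays limits the precision.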

Additional observations from a re-analysis of the deposited data

How the results depend on the processing

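The median difference of the 8 genes was -1.31 against both controls, -1.11 against NestinCre control and -1.51 against Flox control. Leaving out each array in turn moved them over -1.42 to -1.20, -1.22 to -1.01 and -1.61 to -1.40, with the ends set by the knockout arrays. With only probe sets above the median brightness, which drops Cyp4f15, they were -1.13, -0.94 and -1.32. With the mean of all probe sets of a gene they were -1.02, -0.85 and -1.19. That mean took Papss2 to -0.70, against -1.49 with the brightest probe set, and Prex2 to -0.41, against -0.78, because their dim probe sets did not separate the groups. All members stayed below 0 under each alternative run. They were chosen on knockout against the controls, so this is a description, and leaving out an array could not change the sign. Centring on array medians, quantile normalization run again, log2 of the value plus 16 and sex as a covariate moved the medians by less than the spread between replicates. Sex could not move the difference from NestinCre control, since both groups had 1 male and 1 female array. Fits on the compared groups alone could not move the medians either, because they use the same group means. The replicate number as a block gave the same -1.31, and could not move it, since each group had 1 array of each number. In that fit 0 of all probe sets passed, in the knockout and in the control contrast. Nothing is read from its 0 calls among members in the control contrast and among family, pathway and neighbouring genes. The deviations of same-numbered arrays from their group means correlated at -0.31 to 0.19. With 2 arrays per group, and sex differing within knockout and NestinCre control, this cannot show whether the numbers pair arrays. Of the 32 neighbours, 1 passed with an intensity trend in eBayes and 1 with the trend and robust fitting, Fzd2 in both, against 0 otherwise. Dim probe sets, such as Cyp4f15 in knockout, limit how large a difference can be read.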
